A study of Mus musculus with 32 samples.

Results

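The genes described here are 10 genes of MHC class I antigen presentation and the immunoproteasome, namely H2-K1, H2-D1, B2m, Tap1, Tap2, Tapbp, Psmb8, Psmb9, Psmb10 and Nlrc5. They were chosen by name, as the rows of the count table whose Ensembl identifier carries one of these symbols, and all 10 were found among the 32285 genes of the table. They were measured by total RNA sequencing of 32 whole bladders of female C57BL/6 mice, each library being a single bladder. The young mice were 2 months old (n = 6), the middle-aged mice 10 months (n = 5) and the untreated old mice 26 months (n = 6). A further 3 groups of old mice, also 26 months at harvest, had been gavaged on 3 consecutive days a month from 21 to 26 months of age. The water-treated old mice (n = 5) received water, and the vehicle-treated old mice (n = 4) received Phosal 50 PG, polyethylene glycol and ethanol. The D+Q-treated old mice (n = 6) received dasatinib at 5 mg/kg/day and quercetin at 50 mg/kg/day, a drug pair given to clear senescent cells, in that vehicle. No mouse carried an engineered allele. Total counts ran from 15088372 to 52650259 per bladder, with a median of 34074800. The p-values judge differences between groups against the spread between bladders.

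MHC class I molecules display short peptides from inside a cell to CD8 T cells. The peptides are cut by the proteasome, carried into the endoplasmic reticulum by the TAP transporter and loaded onto a class I heavy chain paired with beta-2-microglobulin. Interferon-gamma, a cytokine of T and NK cells, is known to raise most of these genes, and to swap the constitutive catalytic subunits of the proteasome for inducible ones, which makes the immunoproteasome. Nearly all nucleated cells express class I genes, and leukocytes express them at high levels.

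H2-K1 and H2-D1 encode the classical class I heavy chains, and B2m encodes their light chain. Tap1 and Tap2 encode the subunits of the peptide transporter, and Tapbp encodes tapasin, which holds the empty class I molecule at the transporter. Psmb8, Psmb9 and Psmb10 encode the inducible catalytic subunits that take the places of Psmb5, Psmb6 and Psmb7. Nlrc5 encodes the transactivator of class I genes. Of these 10 genes, 7 lie on chromosome 17 in mm10, the build of the count table. Psmb9, Tap1, Psmb8 and Tap2 sit side by side within 34335 bases, from chr17:34181987 to 34216321, and Tapbp (chr17:33915899-33929292), H2-K1 (chr17:33996017-34000347) and H2-D1 (chr17:35262730-35267499) flank them. B2m lies at chr2:122147686-122153083, Nlrc5 at chr8:94434356-94527272 and Psmb10 at chr8:105935735-105938444. Psmb9 and Tap1 run in opposite directions and overlap by 212 bases. Exons of Tap2, Tapbp, Psmb8 and Nlrc5 also overlap those of another gene, and reads of H2-K1 and H2-D1 can match other class I genes. The library kit keeps strand, but whether the counting used it is not given in the sources used here, so counts of these overlapping genes may share reads.

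RefSeq start-site windows (GRCm38.p6, 250 bases before to 50 after the start) were at hand for 8 of the 10 genes, all but Tap2 and Nlrc5. The windows of the light chain and both heavy chains are shown because they share a spaced motif pair, and that of Tap1 because it also serves Psmb9. Capitals mark, on either strand, the interferon response motif GAANNGAAA, the cyclic AMP response core TGACG, known as the X2 box in class I promoters, and the reverse CCAAT core ATTGG, known as the Y box. For H2-K1, which has overlapping windows, that of the upstream start is shown. The first row is chr17:34000298-34000597 on the minus strand, followed by chr17:35262844-35263143, chr2:122147437-122147736 and chr17:34187306-34187605 on the plus strand.
H2-K1: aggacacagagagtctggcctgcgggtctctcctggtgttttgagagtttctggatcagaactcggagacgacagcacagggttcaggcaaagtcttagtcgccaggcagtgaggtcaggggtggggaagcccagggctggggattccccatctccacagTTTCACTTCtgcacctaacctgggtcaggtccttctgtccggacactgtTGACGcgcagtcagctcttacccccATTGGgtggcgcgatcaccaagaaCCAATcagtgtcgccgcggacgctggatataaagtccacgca
H2-D1: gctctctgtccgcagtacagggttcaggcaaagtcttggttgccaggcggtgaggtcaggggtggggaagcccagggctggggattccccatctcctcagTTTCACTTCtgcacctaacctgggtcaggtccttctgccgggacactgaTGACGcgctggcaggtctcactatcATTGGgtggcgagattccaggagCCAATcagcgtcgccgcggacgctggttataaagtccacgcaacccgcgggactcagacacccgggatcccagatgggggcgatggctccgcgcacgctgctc
B2m: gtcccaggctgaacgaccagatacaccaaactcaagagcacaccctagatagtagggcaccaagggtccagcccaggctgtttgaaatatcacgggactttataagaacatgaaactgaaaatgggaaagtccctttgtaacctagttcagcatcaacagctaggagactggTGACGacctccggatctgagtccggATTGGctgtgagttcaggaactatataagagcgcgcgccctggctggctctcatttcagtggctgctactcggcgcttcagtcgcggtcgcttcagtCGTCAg
Tap1: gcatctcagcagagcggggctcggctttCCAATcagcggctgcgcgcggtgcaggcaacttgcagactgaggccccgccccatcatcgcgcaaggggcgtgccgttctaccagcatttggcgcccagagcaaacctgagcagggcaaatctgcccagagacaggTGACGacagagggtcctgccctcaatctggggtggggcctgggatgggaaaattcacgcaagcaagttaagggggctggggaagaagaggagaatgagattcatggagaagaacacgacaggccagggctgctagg

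The windows of H2-K1, H2-D1 and B2m each hold TGACG and then ATTGG, with 20 bases between them. That spacing was noted after the sequences had been seen. It is found in 31 of 32851 RefSeq windows of the same length (0.0944%), which include those of these genes and of H2-M3. The pair at any gap of 0 to 30 bases is in 300 windows (0.913%). TGACG is in 20.8% and ATTGG in 37.4% of windows on either strand. GAANNGAAA is in 7.52% of windows, H2-K1 and H2-D1 among them. Other spacings of these letters were not searched. The window of B2m holds gaaactgaaa, which has a longer gap and is not marked. The windows of Tap1 and Psmb9 overlap by 275 bases, so their matches are largely the same letters read in opposite directions. The window of Tapbp held ATTGG alone, and those of Psmb8 and Psmb10 held none of these letters. The matches are letters in a window, and binding was not measured.

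**Figure D1:**
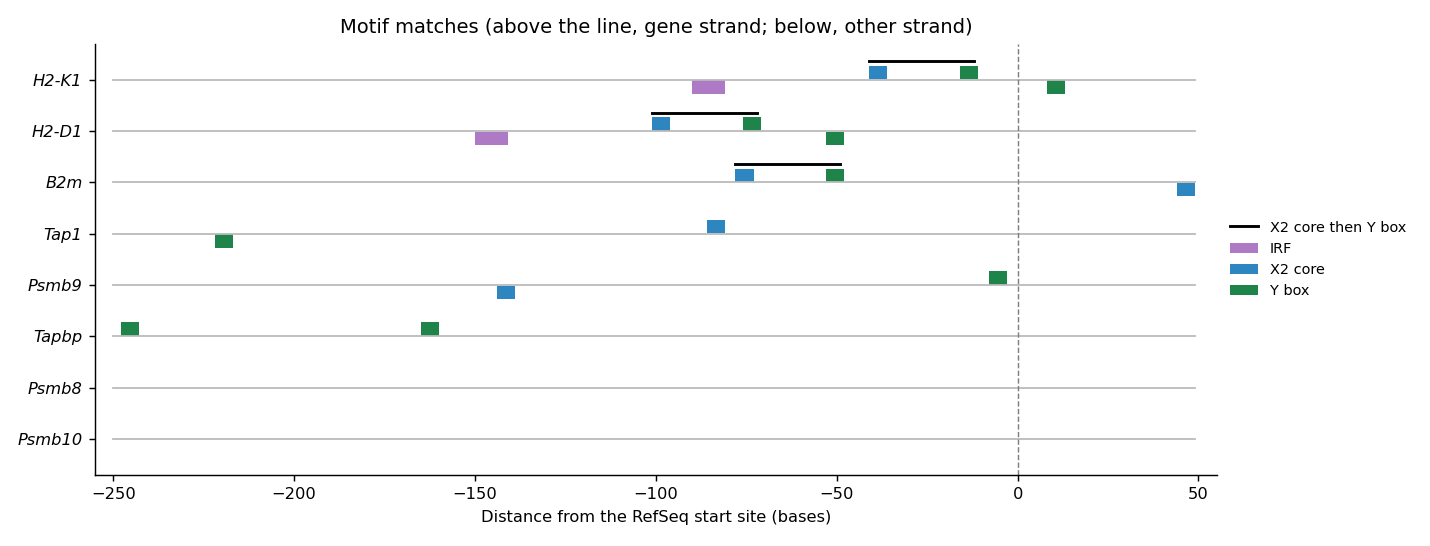
Motif matches in the start-site windows of 8 genes, by distance in bases from the RefSeq start site (dashed line). Coloured blocks above each line are on the strand of the gene and those below on the other strand, and the black bar marks TGACG followed 20 bases later by ATTGG in H2-K1, H2-D1 and B2m.

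To compare levels between genes, counts were divided by exon length and scaled to a sum of 1000000 per bladder (transcripts per 1000000, TPM). On that scale B2m was the highest of the 10 genes in every group, at 1796 TPM ± 81.1 (SD, n = 5) in middle-aged bladders and 3114 ± 647 (n = 6) in untreated old bladders. H2-D1 came next, at 811 ± 10.2 and 1234 ± 243 TPM. H2-K1 followed at 621 ± 24.2 and 1087 ± 259 TPM, and its range overlapped that of H2-D1 in untreated old but not in middle-aged bladders. Tapbp (142 ± 15.8 TPM in untreated old bladders) and Psmb10 (74.8 ± 13) stood apart from their neighbours. The lowest 5 genes in untreated old bladders ran from Tap1 at 45.0 ± 8.60 through Psmb8, Tap2 and Nlrc5 to Psmb9 at 30.5 ± 6.31 TPM, and each overlapped the next in that order.

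Whether the genes differed before old age was asked by comparing middle-aged with young bladders. None of the 10 genes changed. With edgeR, 0 of 10 had an adjusted p under 0.05, where 10.8% of 16754 genes did, and 0 had an unadjusted p under 0.05, where 27.2% of genes did, and DESeq2 also called 0. The log2 differences ran from -0.13 for B2m to 0.10 for Nlrc5, and their 95% intervals all lay between -0.33 and 0.30.

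From middle age to old age all 10 genes rose. In untreated old against middle-aged bladders, edgeR called 10 of 10 higher, where it called 2231 of 17156 genes higher (13%) and 1879 lower. Expressed instead as log2(TPM + 1) from the deposited values and tested with limma, the split over all genes was 1627 higher and 2391 lower. The 10 genes were still called higher. The median log2 change of the 10 genes was 0.85, beside -0.0047 over all genes tested. The smallest was that of Tapbp (0.26) and the largest that of Psmb8 (1.10). Levels from here on are normalised read counts, in counts per 1000000 reads after TMM scaling (CPM), which compare bladders for 1 gene and not genes with each other.

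The heavy chains and the light chain rose together. H2-K1 was at 470 to 526.4 CPM in young bladders (median 495), at 541, 522, 528, 516 and 495 in middle-aged bladders, and at 721 to 1307 in untreated old bladders (median 859). Every untreated old bladder was above every younger one. The change from middle age was 0.86 ± 0.13 (log2, SE; adjusted p = 0.000613, edgeR). H2-D1 was at 603, 583, 603, 613 and 582 CPM in middle-aged bladders and at 767 to 1241 (median 845) in untreated old bladders, and again the ranges did not overlap. It rose by 0.65 ± 0.11 (adjusted p = 0.00115, edgeR). B2m was at 405 to 559.5 CPM in young bladders (median 472), at 458, 450, 442, 433 and 421 in middle-aged bladders and at 623 to 1042 (median 709) in untreated old bladders. Its lowest untreated old bladder lay above its highest younger one, and the rise was 0.85 ± 0.12 (adjusted p = 0.000383, edgeR). B2m was also a reference gene for RT-qPCR in this study, along with Rps18 and Ywhaz. The paper reports that, of the candidates it screened, these varied least between young and old bladders, and it averaged them. In untreated old against middle-aged bladders Rps18, a ribosomal protein gene, differed by -0.0099 and Ywhaz, a 14-3-3 protein gene, by 0.034 (log2). Neither was called.

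The transporter subunits rose to different extents. Tap1 was at 31.5 to 50.3 CPM in young bladders (median 38.7), at 40.1, 37.6, 38.3, 34.8 and 35.6 in middle-aged bladders, and at 58.6 to 91.3 in untreated old bladders (median 69.1). The untreated old bladders all lay above the younger ones, and the rise was 0.96 ± 0.10 (log2, SE; adjusted p = 4.40e-05, edgeR). Tap2 was at 35.5, 32.8, 36, 36.2 and 35.6 CPM in middle-aged bladders and at 42.9 to 50.0 (median 45.7) in untreated old bladders. Its ranges were also apart, with a smaller rise of 0.41 ± 0.046 (adjusted p = 5.54e-05, edgeR). Tapbp was at 127, 119.6, 123, 139 and 124 CPM in middle-aged bladders and at 134 to 176 (median 146) in untreated old bladders. It was the only one of the 10 genes in which these groups overlapped, and it rose by 0.26 ± 0.061 (adjusted p = 0.00853, edgeR).

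Of the inducible proteasome subunits, Psmb8 and Psmb9 rose most and Psmb10 rose less. Psmb8 was at 19.7 to 25.7 CPM in young bladders (median 21.4), at 22, 21.0, 19.5, 21.0 and 18.7 in middle-aged bladders and at 35.5 to 57.4 (median 41.3) in untreated old bladders. Every untreated old bladder lay above all younger ones, and the rise from middle age was 1.10 ± 0.12 (log2, SE), or 2.14-fold (adjusted p = 3.67e-05, edgeR). Psmb9 was at 16.8, 16.1, 15.9, 15.1 and 14.9 CPM in middle-aged bladders and at 25.2 to 42.3 (median 31.0) in untreated old bladders. These did not overlap, and Psmb9 rose by 1.06 ± 0.12, or 2.09-fold (adjusted p = 4.43e-05, edgeR). Psmb10 was at 29.1, 28.8, 29.8, 29.9 and 25.8 CPM in middle-aged bladders and at 32.2 to 48.3 (median 34.8) in untreated old bladders, a rise of 0.39 ± 0.097 (adjusted p = 0.0116, edgeR) with no overlap. The transactivator Nlrc5 was at 30.0 to 39.7 CPM in young bladders (median 32), at 34.6, 43.3, 34.0, 32.9 and 37.8 in middle-aged bladders and at 54.6 to 104 (median 74.4) in untreated old bladders. Its lowest untreated old bladder was above its highest younger bladder, and it rose by 1.08 ± 0.14 (adjusted p = 0.000180, edgeR).

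**Figure D2:**
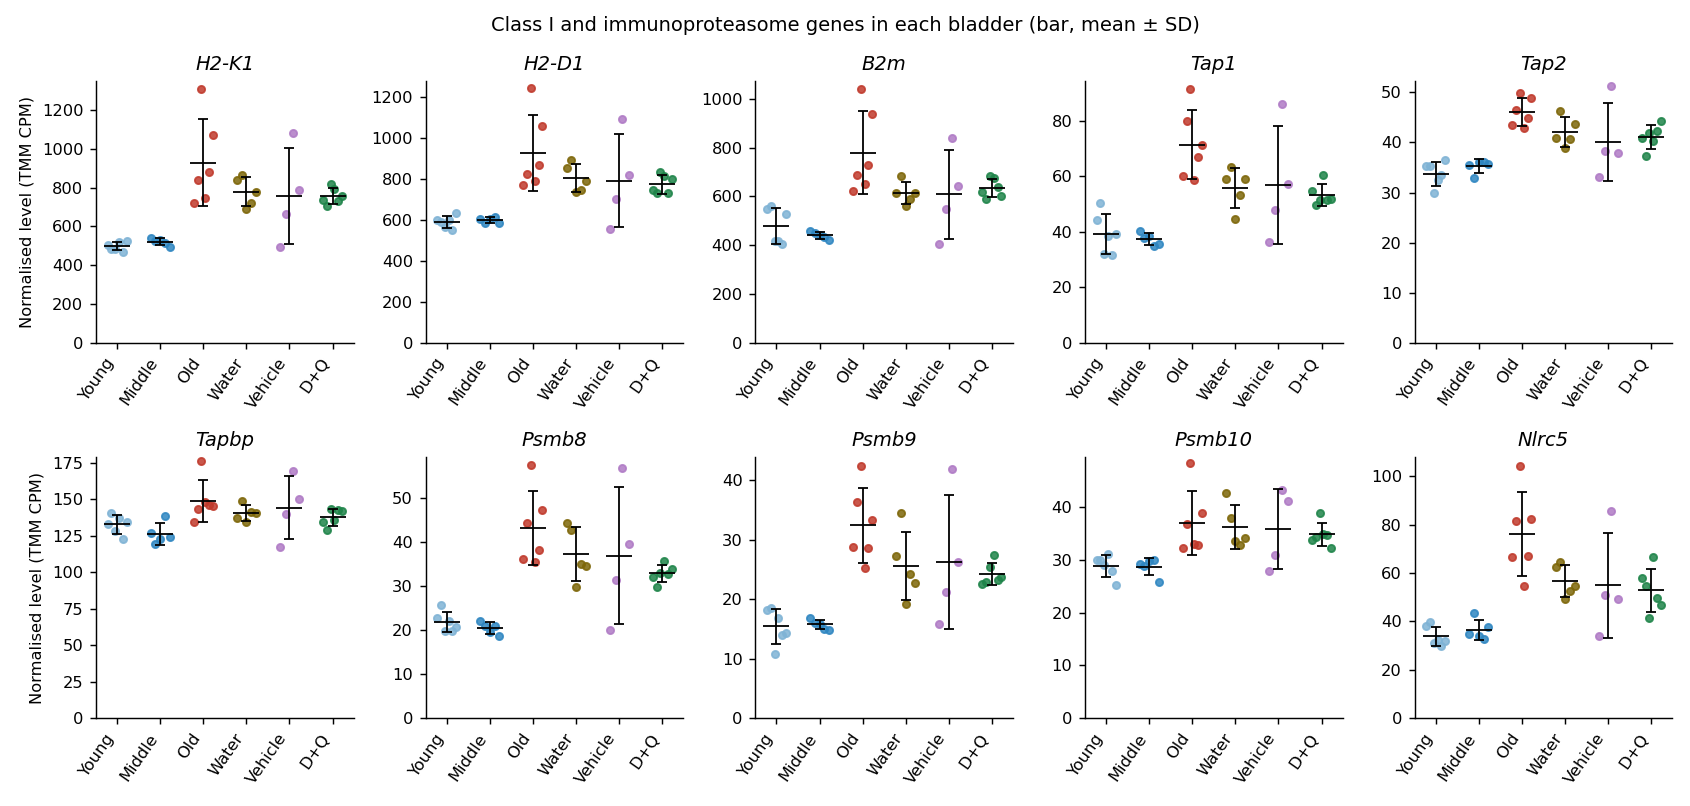
Normalised level (CPM after TMM scaling, each axis from 0) of the 10 genes in each of 32 bladders, by group, with the group mean and SD as black bars. The 6 untreated old bladders lie above the 5 middle-aged ones in every panel but Tapbp, and the 4 vehicle-treated old bladders run from near the younger levels to near the highest untreated old level.

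In 9 of the 10 genes, all but Tapbp, every untreated old bladder exceeded every middle-aged bladder, as it did for 8.02% of the 15684 genes at 1 CPM or more in at least 4 bladders. The same 9 genes were also higher in every untreated old than in every young bladder, where 7.21% of genes were. Untreated old replicate 3 had the highest level of all 10 genes within its group. It also had the highest summed T cell markers (82.6 CPM, group range 35.9 to 82.6), the lowest summed B cell markers (62.3 CPM, group range 62.3 to 192) and the lowest total count (30757033). Its summed pan-leukocyte markers were high but not the highest (386 CPM, group range 251 to 388). Without it all 10 genes were still called higher than in middle age, with H2-K1 at 0.74, Psmb8 at 1.0 and Tapbp at 0.21 (log2).

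The later change (26 against 10 months) was larger than the earlier one (10 against 2 months) for 9 of 10 genes, by an edgeR contrast of both steps, where 7.17% of 17376 genes were called in this direction. Both steps share the middle-aged bladders. The differences between steps ran from 0.36 ± 0.11 for Tapbp (log2, SE; adjusted p = 0.0360) to 1.23 ± 0.20 for Psmb8 (adjusted p = 0.00189), both by edgeR. Psmb10 was not called (0.43 ± 0.16, adjusted p = 0.0953, edgeR). Without middle-aged replicate 5 the count was 5 and without middle-aged replicate 2 it was 6 of 10. Over the 17 fits that each left out 1 bladder, the call was lost in 8 for Tapbp, 4 for H2-D1, 2 for Tap2 and 1 for H2-K1.

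Other proteasome subunits gave few calls. Among the constitutive catalytic subunits 0 of 3 changed between middle and old age, and among the other subunits of the core particle 0 of 11 (edgeR; 0 of each at an unadjusted p under 0.05), although limma called 1 of the 11. Of the regulatory particle 2 of 17 fell, Psmd7 (-0.14) and Psmd4 (-0.088), where limma called 7, the fit without a filter 1 and the fit of all 6 groups 0. Without middle-aged replicate 1, untreated old replicate 2 or untreated old replicate 6 the count was 1. The edgeR count of 2 of 17 is near the share of all genes called lower by edgeR in this comparison, given above. As also given above, limma called more genes lower over all genes than edgeR. Within a bladder, the TPM of Psmb8 relative to Psmb5 was 0.0850 ± 0.0079 (SD, n = 5) in middle-aged and 0.180 ± 0.030 (n = 6) in untreated old bladders. The log2 difference was 1.07, with no overlap (two-sided exact permutation test, p = 0.00433, the smallest that 5 against 6 bladders allow; adjusted p = 0.0182 over 21 tests). Psmb9 relative to Psmb6 rose from 0.0738 ± 0.0064 to 0.162 ± 0.031, a log2 difference of 1.12, and Psmb10 relative to Psmb7 from 1.15 ± 0.075 to 1.53 ± 0.29, a difference of 0.39. Both reached the same exact p of 0.00433 (adjusted p = 0.0182). None of the 3 ratios differed between young and middle-aged bladders past the test (exact p = 0.524, 0.641 and 0.247).

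**Figure D3:**
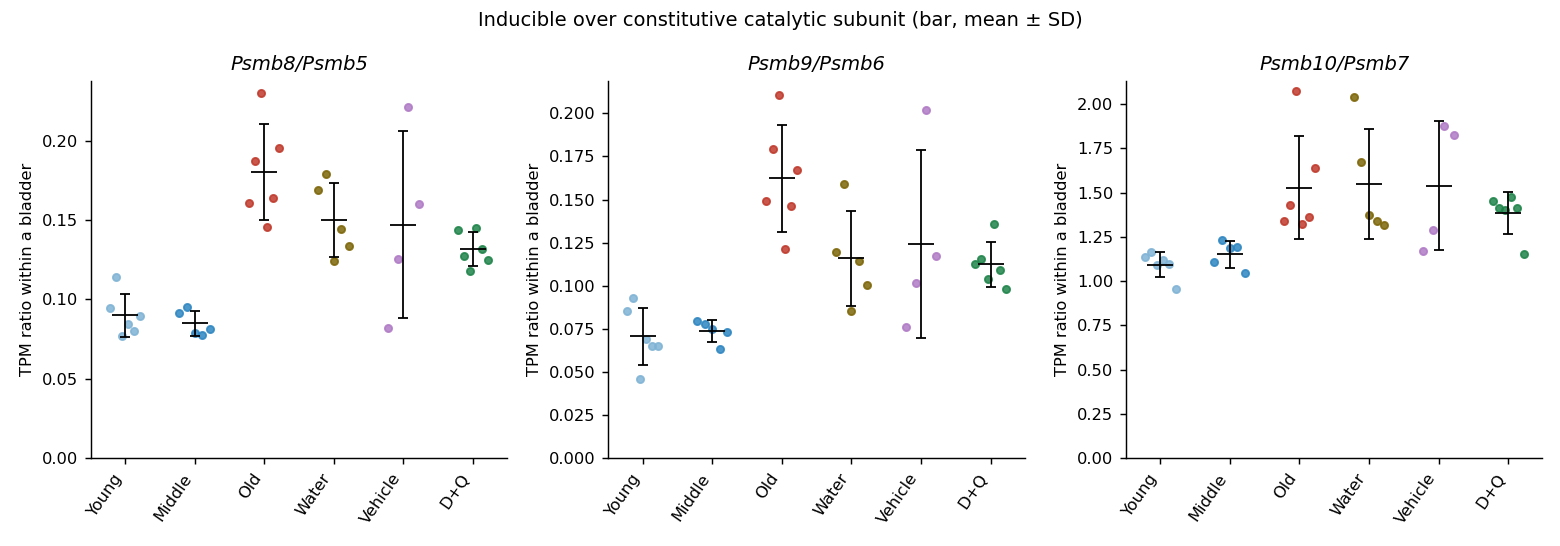
Ratio of each inducible proteasome subunit to the constitutive subunit it replaces (TPM over TPM within a bladder, each axis from 0), by group, with mean and SD. All 3 ratios are higher in every untreated old than in every middle-aged bladder. For Psmb8 over Psmb5 every D+Q-treated old bladder is below every untreated old bladder, by a narrow margin.

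Other genes of the pathway were counted from fixed lists in the same comparison of untreated old with middle-aged bladders. Of 14 other class I and class I-like chains tested, 9 rose and 0 fell (median log2 change 0.57), led by H2-Q7 (1.63), H2-Q6 (1.46) and H2-Q10 (1.40), whose reads may be shared with each other and with H2-K1 and H2-D1. Mr1, which presents vitamin metabolites, was at -0.012 and Fcgrt, the neonatal Fc receptor, at -0.040. Of 10 trimming and loading factors 6 rose (median 0.17), led by Tapbpl (0.48), a tapasin relative, Hspa5 (0.47), an endoplasmic reticulum chaperone, and Erap1 (0.36), which trims peptides. Of 9 proteasome activators and assembly factors, Psme1 (0.24) and Psme2 (0.20), the interferon-inducible activator subunits, rose and Psmg1 (-0.15), an assembly chaperone, fell. These 3 calls were 0 in the fit of all 6 groups and 1 without middle-aged replicate 2, middle-aged replicate 3 or untreated old replicate 6.

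Among 15 transcription factors of class I genes and their partners, 8 rose and 0 fell (median 0.19), among them Ciita (1.28), the class II transactivator, and Irf9 (0.73). Rfx5, Rfxap and Rfxank, the partners through which Nlrc5 acts at class I promoters, were at 0.064, -0.026 and -0.085 and were not called. Of 9 interferon receptors and signaling genes 7 rose (median 0.15), led by Socs3 (1.09) and Socs1 (0.82), which dampen cytokine signals, and Ifngr1 (0.33), a receptor chain for interferon-gamma. limma called 3 of the 9. Of 13 genes known to be induced by interferon-gamma 11 rose (median 0.91), led by the chemokines Cxcl9 (4.62) and Cxcl10 (2.04) and by Igtp (1.23), an interferon-induced GTPase.

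**Figure D4:**
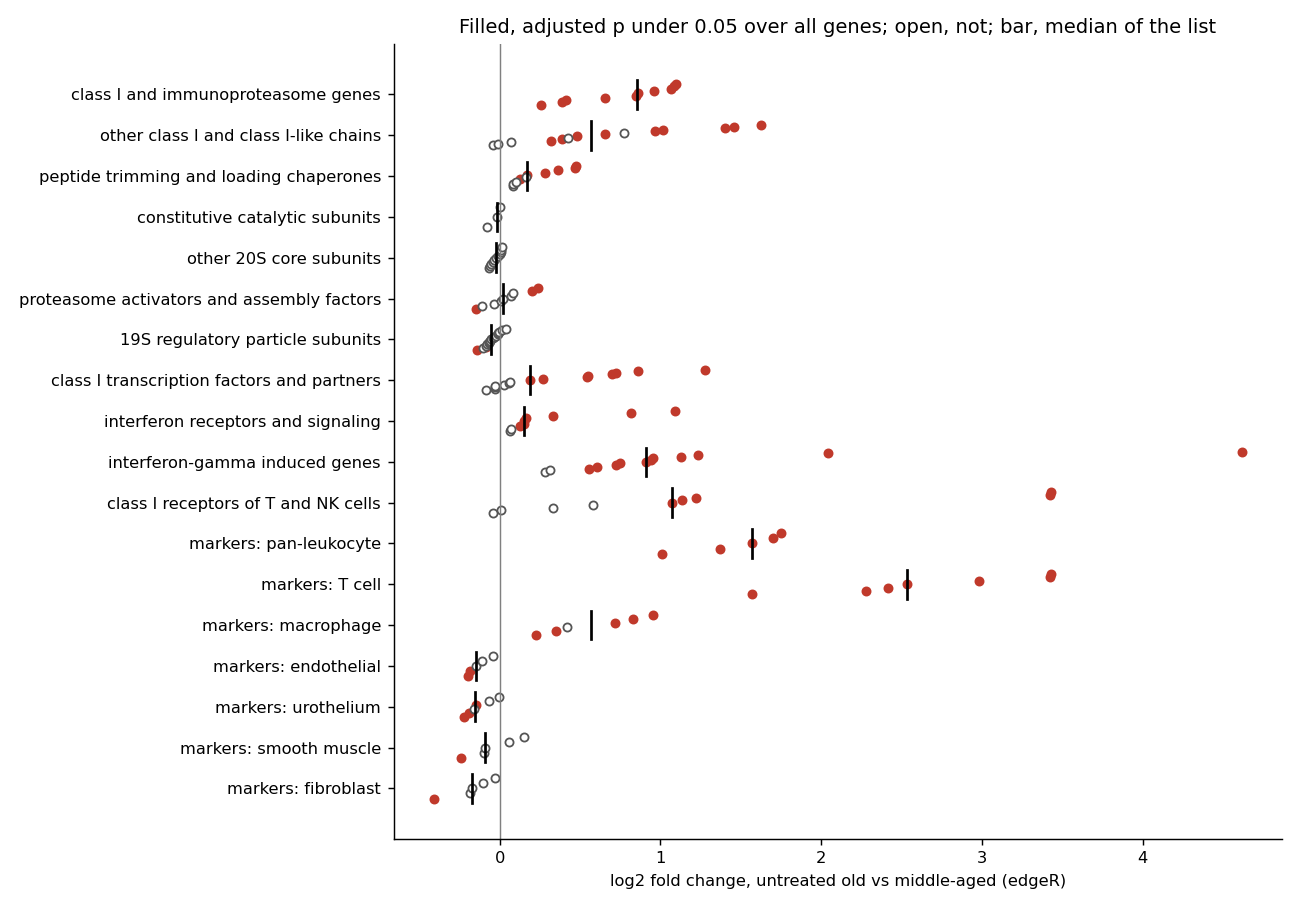
log2 fold change of untreated old against middle-aged bladders (edgeR) for each gene of 18 fixed lists, with filled points at an adjusted p under 0.05 and a bar at the median of each list. The 10 class I and immunoproteasome genes are all filled and to the right of 0, while the constitutive catalytic and other core subunits are all open and near 0.

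Markers of leukocytes moved with these genes. All 5 pan-leukocyte markers rose from middle to old age (median log2 change 1.57), and their summed level was 116 to 134 CPM in middle-aged and 251 to 388 CPM in untreated old bladders. T cell markers rose in 7 of 7 genes (median 2.54), B cell markers in 5 of 6 (4.46), plasma cell markers in 4 of 5 (1.47), macrophage markers in 5 of 6 (0.57) and dendritic cell markers in 4 of 6 (0.66). NK cell markers rose in 1 of 5, Prf1 (1.53), which cytotoxic T cells also express. Of 9 tested genes listed as class I receptors 5 rose. Among them were Cd8a (3.43) and Cd8b1 (3.42), which the T cell list also holds, and Klrc1 (1.22), an inhibitory receptor. The other called genes were Lilrb4a (1.13) and Pirb (1.07), receptors that leukocytes other than T and NK cells express. Klrk1, Klra4, Klra7 and Klrd1 were not called. The bladder's own markers did not rise: 3 of 6 urothelial, 2 of 5 endothelial, 1 of 5 smooth muscle and 1 of 5 fibroblast markers fell and 0 were called higher. The fit of all 6 groups called 0 urothelial markers and the fit without a filter 0 smooth muscle markers. With 1 bladder left out, the smooth muscle call was lost without middle-aged replicate 1, 3, 4 or 5 or untreated old replicate 1 or 2, and endothelial calls fell to 1 without middle-aged replicate 3 or 4 or untreated old replicate 5. Without middle-aged replicate 3 macrophage markers were called in 3 of 6. Urothelial markers summed to 3496 CPM or more and smooth muscle markers to 23503 CPM or more in every bladder, so the defining markers of the labelled tissue were present. In whole-bladder RNA, more cells of a type and more RNA per cell cannot be told apart. The part of leukocyte content in the rise of the 10 genes was not tested.

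The old groups that were gavaged asked whether D+Q changed the old bladder beyond the handling and the solvent. All 3 gavaged groups were compared with the same untreated old bladders, so these comparisons share their controls and are given side by side. In each of them the log2 difference of all 10 genes was below 0 and none of the genes was called by edgeR. For D+Q against no treatment the median difference was -0.30 (range -0.53 to -0.089), 0 of 10 genes were called, as were 0 of 17037 genes (0%), and 8 of 10 had an unadjusted p under 0.05 and lower, beside 6.67% of all genes. DESeq2 called 172 genes in this comparison, and 4 of the 10, Tap1, Psmb8, Psmb9 and Nlrc5. In water-treated against untreated old bladders the median was -0.25, 0 of 10 were called (1% of 17250 genes were), and 5 of 10 had an unadjusted p under 0.05 and lower, beside 8.13% of all genes. DESeq2 called 681 genes in the water comparison, and 2 of the 10, Tap1 and Nlrc5. Without untreated old replicate 3, which had the highest levels, the median was -0.18 for D+Q, -0.14 for water and -0.18 for vehicle. Psmb10 was then above 0 in the D+Q (0.0033), water (0.046) and vehicle (0.035) groups. In vehicle-treated against untreated old bladders the median was -0.27, 0 of 10 were called (0% of 17440 genes), 0 of 10 had an unadjusted p under 0.05, where 8.39% of genes did, and DESeq2 called 127 genes and 0 of the 10. The vehicle median was -0.12 without vehicle replicate 1 and -0.52 without vehicle replicate 3.

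Nlrc5 had the largest difference of the 10 genes in all 3 comparisons. It was at 62.6, 64.3, 49.4, 52.8 and 54.5 CPM in water-treated, at 34.1, 51.0, 85.4 and 49.1 in vehicle-treated and at 41.2 to 66.4 (median 52.2) in D+Q-treated old bladders. These groups overlapped each other and the untreated old bladders. Against untreated old bladders it was at -0.44 ± 0.14 (log2, SE; adjusted p = 0.169), -0.48 ± 0.24 (adjusted p = 0.615) and -0.53 ± 0.15 (adjusted p = 0.269) in the water, vehicle and D+Q groups by edgeR. Tap1 was at 59.0, 63.2, 44.6, 53.3 and 59.1 CPM in water-treated, at 36.3, 47.8, 86.1 and 57.0 in vehicle-treated and at 49.5 to 60.4 (median 51.5) in D+Q-treated old bladders, with differences of -0.37, -0.34 and -0.43. Without vehicle replicate 1 the vehicle differences were -0.30 for Nlrc5 and -0.17 for Tap1, and without vehicle replicate 3 they were -0.77 and -0.61. The D+Q-treated bladders overlapped only the lower end of the untreated old range of 58.6 to 91.3 CPM.

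Psmb8 was at 44.3, 42.7, 29.8, 34.9 and 34.6 CPM in water-treated, at 19.97, 31.4, 56.8 and 39.5 in vehicle-treated and at 29.8 to 35.8 (median 32.9) in D+Q-treated old bladders. The D+Q-treated bladders reached the lowest of the untreated old bladders (35.5 CPM), and the difference was -0.39 ± 0.10 (log2, SE; adjusted p = 0.264, edgeR). H2-K1 was at 840.2, 863, 690.5, 721 and 777 CPM in water-treated, at 492.8, 666, 1079 and 788 in vehicle-treated and at 704 to 817 (median 745) in D+Q-treated old bladders. B2m was at 615, 684, 562, 591 and 613 CPM in water-treated, at 406, 549, 840.3 and 642 in vehicle-treated and at 591 to 685 (median 628) in D+Q-treated old bladders. Both genes overlapped the untreated old range in each gavaged group. Tapbp and Psmb10, which were the least changed between middle and old age, differed least here, by -0.11 and -0.089 in the D+Q group.

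Against the gavaged controls, D+Q-treated old bladders showed no called difference. With edgeR, 0 of 10 genes were called against vehicle-treated (0% of 17267 genes, with 4.18% at an unadjusted p under 0.05) and 0 of 10 against water-treated old bladders (0% of 17161 genes, with 7.82% at an unadjusted p under 0.05). None of the 10 had an unadjusted p under 0.05 in either, and DESeq2 called 0 of the 10, with 13 and 66 genes in all. The median log2 difference was -0.044 against vehicle and -0.043 against water. The 95% intervals lay between -0.63 and 0.42 against vehicle and between -0.37 and 0.20 against water, so differences within those bounds were not resolved.

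**Figure D5:**
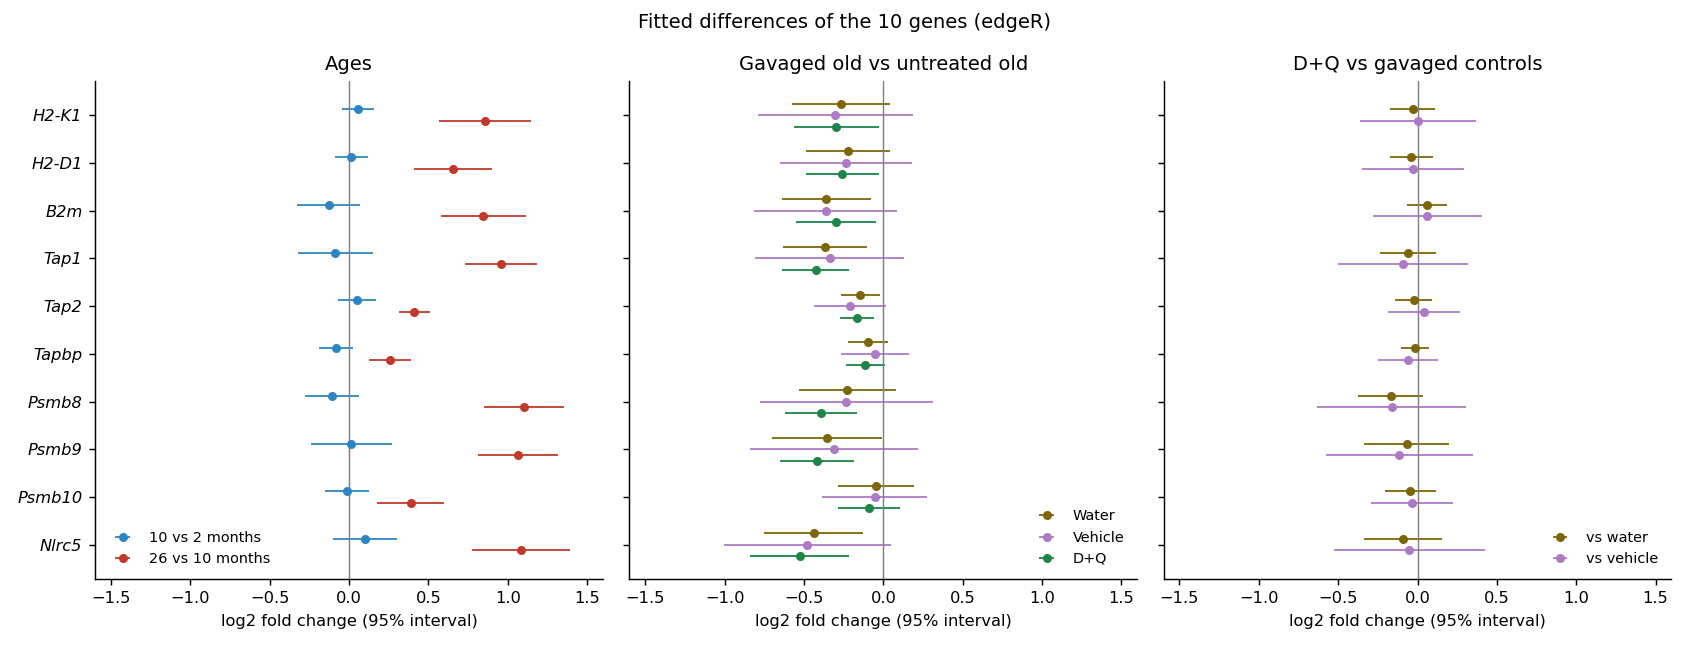
Fitted log2 fold changes of the 10 genes with 95% intervals (edgeR), for the age steps, for each gavaged old group against untreated old, and for D+Q against the gavaged controls. The intervals for 26 against 10 months lie above 0 for all 10 genes, the points of the gavaged groups against untreated old lie below 0, and all intervals against water or vehicle include 0.

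The vehicle group held the widest spread. Vehicle-treated old replicate 1 had the lowest and replicate 3 the highest level of all 10 genes within the group. Replicate 1 was close to the younger groups, with H2-K1 at 492.8, Tap1 at 36.3 and Psmb8 at 19.97 CPM, while replicate 3 was among the highest of all bladders, with 1079, 86.1 and 56.8 CPM. Their summed pan-leukocyte markers were 134 and 516 CPM, the lowest and highest of the group, and their T cell markers 11.8 and 71.4 CPM. The part of leukocyte content in this spread was not tested. Without replicate 1 the differences of D+Q from vehicle were below 0 for all 10 genes (H2-K1 -0.16, Psmb8 -0.37), and without replicate 3 they were above 0 for all 10 (H2-K1 0.22, Psmb8 0.13), with none called by edgeR. The direction of that comparison changed with which of these bladders was left out.

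Most genes stayed above middle-aged levels after D+Q or water. In D+Q-treated old bladders every bladder exceeded every middle-aged bladder in 8 of 10 genes, all but Tapbp and Nlrc5, where 5.25% of 15684 genes did. In water-treated old bladders this held for 9 of 10, all but Tapbp (6.62% of genes). In vehicle-treated old bladders it held for 0 of 10 (4.58% of genes), and without replicate 1 for 10 of 10 (9.57%).

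The subunit ratios gave a called difference after D+Q. Psmb8 relative to Psmb5 was 0.132 ± 0.011 (SD, n = 6) in D+Q-treated against 0.180 ± 0.030 (n = 6) in untreated old bladders, a log2 difference of -0.44 with no overlap (exact permutation test, p = 0.00216, the smallest that 6 against 6 bladders allow; adjusted p = 0.0182). Psmb9 relative to Psmb6 was 0.113 ± 0.013 against 0.162 ± 0.031, a difference of -0.51 with overlapping ranges (exact p = 0.00433, adjusted p = 0.0182). Psmb10 relative to Psmb7 differed by -0.13 (exact p = 0.329, adjusted p = 0.531). For Psmb8 relative to Psmb5 the highest D+Q-treated bladder was at 0.1452 and the lowest untreated old bladder at 0.1454, so the ranges nearly met. In the same comparison Psmb5, Psmb6 and Psmb7 were at 0.072, 0.12 and 0.055 (log2), and edgeR called none of them. The denominators thus added to the differences of these ratios. The water group differed from untreated old by -0.26, -0.50 and 0.018 for these ratios (adjusted p = 0.273, 0.121 and 1, exact permutation tests), and the vehicle group by -0.37, -0.46 and 0.00020 (adjusted p = 0.460, 0.323 and 1). D+Q against vehicle gave -0.072, -0.055 and -0.13 (adjusted p = 0.889, 0.889 and 0.657, exact permutation tests), and against water -0.18, -0.019 and -0.14 (adjusted p = 0.323, 0.986 and 0.5). Without water-treated old replicate 2, Psmb9 relative to Psmb6 was called lower in the water group (-0.62). The called differences after D+Q were thus from untreated old bladders, and none was called against either gavaged control.

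Genes induced by interferon-gamma, pan-leukocyte markers and T cell markers were also at lower values after D+Q than in untreated old bladders. All 13 interferon-gamma induced genes tested had an unadjusted p under 0.05 and lower (median log2 difference -0.60), beside 6.67% of all genes. Cxcl9 was at -1.47 and Cxcl10 at -1.23, and edgeR called 0 of 13. The same was so for 5 of 5 pan-leukocyte markers (median -0.39) and 6 of 7 T cell markers (-0.65), again with 0 called. Interferon-gamma induced genes summed to a median of 545 CPM in untreated, 403 in water-treated, 374 in vehicle-treated and 396 in D+Q-treated old bladders. In that order the pan-leukocyte markers were at 343, 288, 239 and 240 CPM and the T cell markers at 52.9, 27.5, 31.9 and 33.6 CPM. For these lists the water and vehicle groups were thus also below untreated old bladders by median. B cell, NK cell and dendritic cell markers were lower by median in each gavaged group too. Plasma cell markers were not, at 614, 600, 712 and 715 CPM in the same order. Macrophage markers were at 541, 534, 608 and 513 CPM, so they were higher with vehicle. The part of leukocyte content in the lower values of the 10 genes was not tested.

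Over the 32 bladders the 10 genes varied together. Spearman correlations between pairs of them (45 pairs, CPM) ran from 0.63 for Tapbp and Nlrc5 to 0.98 for H2-K1 and H2-D1, with a median of 0.89. The points share libraries and age groups, and H2-K1 and H2-D1 may share reads. Of 12281 other genes with a mean of at least 5 CPM, the 10 most like the mean pattern of these genes over the 32 bladders were H2-Q4 (Spearman 0.96), Ccl5 (0.94), H2-M3 (0.94), H2-Q6 (0.94), AW112010 (0.93), Slfn2 (0.93), H2-Q7 (0.93), Slamf8 (0.93), Rinl (0.92) and Shisa5 (0.92). Of these, 4 encode other class I chains, and Ccl5 is a T cell chemokine. Their log2 differences between 26 and 10 months, which the choice itself used, ran from 0.45 (Shisa5) to 2.94 (Ccl5).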

How the data were processed

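Gene counts of 32 bladders were used as deposited. The authors aligned reads of a stranded total RNA kit with STAR 2.7.3 to mm10 and counted them per gene with featureCounts (Subread), giving whole-number counts without pooling. The deposited log2 values equal log2 of (count + 1) per exon length scaled to sum to 100000 per bladder. They were checked and, rescaled to a sum of 1000000, were tested only with limma. The authors' exon length column, in bases, gave transcripts per 1000000 (TPM) here. Columns were assigned by their names and the groups come from the labels. The members and lists were chosen with earlier results of these data known.

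Each pair of groups was fitted alone with edgeR 4.0.16 (TMM scaling, filterByExpr, quasi-likelihood test) in R 4.3.3, with Benjamini-Hochberg adjustment over all genes tested and a threshold of 0.05. All 10 genes passed the filter in every fit. Subunit ratios were tested by two-sided exact permutation tests over all splits, p being 2 times the smaller one-sided share, adjusted over 21 tests. This convention replaced the share of splits with an absolute difference at least as large after results had been seen, and both called the same 5 ratios. Alternatives were DESeq2 1.42.0, RLE scaling, other filters, 1 fit over all 6 groups, replicate blocks and leaving out each bladder. A further alternative was limma 3.58.1 on log2(TPM + 1) and log2(TPM + 0.1), with TPM from the rescaled deposited values. Total counts ran from 15088372 to 52650259. The lowest count of any of the 10 genes in a bladder was 160 (Psmb9). Counting error was 4.33% of the level of Psmb9 in middle-aged bladders, close to its SD there (5.02%), and well under the SD for the heavy and light chains. All 10 genes were named in every comparison; of each list, up to 3 called genes with the largest change were named, plus those against the trend. 1 gene that this rule would name is not reported here. The genes of most like pattern were the 10 with the highest Spearman correlation to the mean of the z-scored log2(CPM + 0.1) values. Other genes named (Rps18, Ywhaz, Mr1, Fcgrt, Rfx5, Rfxap, Rfxank, Lilrb4a, Pirb, Klrk1, Klra4, Klra7 and Klrd1) were chosen after their values were seen. So were the D+Q values of Cxcl9, Cxcl10, Psmb5, Psmb6 and Psmb7. No pair of libraries had identical counts (lowest chi-square per degree of freedom 5.70). Scripts were tested on simulated data.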

Additional observations from a re-analysis of the deposited data

Results flagged for a closer look

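Within groups of 4 to 6 bladders, 5 of 78 groups of values had a bladder whose gap to the nearest other exceeded Dixon's critical value, and chance gives about 1 in 20. Tap2 was at 32.8 CPM in middle-aged replicate 2, below the other middle-aged bladders. Tapbp was at 176 CPM in untreated old replicate 3, above the others of its group. Psmb10 was at 25.8 CPM in middle-aged replicate 5. The ratio of Psmb10 to Psmb7 (TPM) was 0.955 in young replicate 6 and 1.15 in D+Q-treated old replicate 6, each the lowest of its group.

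The change after 10 months differed from the change before it in 9 genes, by an edgeR contrast of both steps. The log2 differences between steps were 0.82 for H2-K1, 0.66 for H2-D1, 1.0 for B2m, 1.07 for Tap1, 0.38 for Tap2, 0.36 for Tapbp, 1.23 for Psmb8, 1.07 for Psmb9 and 1.0 for Nlrc5.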

How the results depend on the processing

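The rise of the 10 genes from middle to old age was called for 10 of 10 under every alternative fit and with any 1 bladder left out, and 0 of 10 were called between young and middle-aged bladders in each of those. The counts over all genes moved more, and the cause was not tested. With all 6 groups in 1 fit the genes called were 2858 for middle-aged against young (1811 as reported), 2519 for untreated old against middle-aged (4110) and 0 for water-treated against untreated old (173). That last count was 99 with no filter on low counts and 0 with limma at either pseudocount. DESeq2 called 681 genes for water (2 of the 10), 127 for vehicle and 172 for D+Q (4 of the 10) against untreated old bladders, and 13 and 66 for D+Q against vehicle and water. For the contrast of the age steps, the alternatives called 7 to 9 of the 10 genes. Tapbp was lost with no filter and with limma, Tap2 with limma, and both in the fit of all 6 groups.

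Same-numbered bladders of different groups did not deviate together (correlations of -0.29 to 0.21, in no comparison all over 0.1), by title or description number, so the numbers were not taken to pair them. With a replicate block by title number 716 genes were called between young and middle-aged bladders, and 893 by description number. Either replicate block gave 0 for water against untreated old, and 1 (title) and 2 (description) genes for D+Q against water. Psmb9 was at -0.054 between young and middle-aged bladders with the description block. D+Q against vehicle turned positive with the title block for H2-D1 (0.029), Tap1 (0.0015), Psmb10 (0.017) and Nlrc5 (0.078), and with the description block for H2-D1 (0.011), Tap1 (0.00074) and Nlrc5 (0.11). It also did with limma, at 0.0089 and 0.0090 for H2-D1 and at 0.0033 and 0.0052 for Nlrc5. In untreated old against middle-aged bladders the title block called 1 regulatory particle subunit, 3 macrophage and 2 fibroblast markers (2, 5 and 1 as reported), and the description block 1 regulatory particle subunit and 1 proteasome activator or assembly factor (2 and 3). In the step contrast the title block lost Tap2 and Tapbp and the description block H2-D1 and Tapbp.

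With 1 bladder left out, the genes called ran from 728 (without middle-aged replicate 5) to 2794 (without young replicate 4) for middle-aged against young, from 37 to 199 for water against untreated old, from 0 to 3 for D+Q against water and from 683 to 2907 for the step contrast, where 5 to 9 of the 10 genes were called. In vehicle-treated against middle-aged bladders 10 genes were apart without vehicle replicate 1 and 0 with it, an alternative chosen after seeing the data. Differences of the 10 genes that changed sign were uncalled throughout. Between young and middle-aged bladders H2-D1 ran from -0.0057 to 0.033, Tap1 from -0.15 to 0.0014, Psmb9 from -0.061 to 0.076 and Psmb10 from -0.056 to 0.022. Against untreated old bladders Psmb10 ran from -0.12 to 0.046 with water, from -0.15 to 0.053 with vehicle and from -0.12 to 0.0033 with D+Q, and Tapbp from -0.13 to 0.038 with vehicle. D+Q against vehicle ran from -0.16 to 0.22 for H2-K1, -0.17 to 0.17 for H2-D1, -0.095 to 0.26 for B2m, -0.26 to 0.18 for Tap1, -0.049 to 0.18 for Tap2, -0.15 to 0.025 for Tapbp, -0.37 to 0.13 for Psmb8, -0.30 to 0.21 for Psmb9, -0.14 to 0.069 for Psmb10 and -0.23 to 0.25 for Nlrc5. D+Q against water ran from -0.072 to 0.0073 for H2-K1, -0.070 to 0.00033 for H2-D1, -0.051 to 0.013 for Tap2, -0.033 to 0.0032 for Tapbp, -0.16 to 0.064 for Psmb9 and -0.082 to 0.025 for Psmb10. Of the log2 ratios, Psmb9/Psmb6 ran from -0.023 to 0.18 between young and middle-aged bladders, from -0.26 to 0.21 for D+Q against vehicle and from -0.12 to 0.10 against water. Psmb9/Psmb6 of water against untreated old ran from -0.62, called without water replicate 2, to -0.39. Psmb10/Psmb7 ran from -0.088 to 0.11 for water and -0.11 to 0.12 for vehicle against untreated old, and Psmb8/Psmb5 from -0.32 to 0.15 for D+Q against vehicle.

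With 4 to 6 bladders in a group, differences of the size of the intervals given were not resolved. An adjusted p over 21 exact tests depends on the number of tests. Whole-bladder counts do not give the cell of origin, and reads shared between class I genes or overlapping exons cannot be told apart here.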
